A study of Mus musculus with 6 samples.

Results

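The insulin-like growth factor (IGF) system was followed in the cerebral cortex of young and old adult mice through 10 genes, chosen by name: the ligand Igf1, the receptors Igf1r and Igf2r, the binding proteins Igfbp2, Igfbp3, Igfbp4, Igfbp5, Igfbp6 and Igfbp7, and the adaptor Irs1. These are 10 of the 55421 genes for which a read count and a TPM value (a level relative to all transcripts of the library, corrected for transcript length) were deposited for each mouse. Male C57BL/6J mice of WT genotype were compared at 6 and 24 months of age, with 3 mice of each age and 1 library per mouse. All mice, young and old, had been fed a standard diet, anaesthetised with isoflurane and killed by cervical dislocation, and mice with visible tumours had been discarded. The p-values given here therefore measure the spread between single mice of 1 strain and 1 sex.

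IGF1 binds a receptor tyrosine kinase, IGF1R, which phosphorylates the adaptor IRS1 and thereby activates the PI3K, AKT and mTOR kinases, which promote growth, survival and protein synthesis. In extracellular fluid most IGF is held by binding proteins, which carry it, keep it from the receptor or release it when they are cleaved by proteases. In the adult brain, IGF1 is made locally by several cell types and also enters from the circulation, and IGF signalling has long been studied for its part in growth and lifespan.

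Of the 10 genes, 3 (Irs1, Igf2r and Igfbp3) had lower scaled read counts in every 24-month-old mouse than in any 6-month-old mouse, a share near the 32.4% of genes of at least 1 CPM (read counts scaled by library size and TMM factor) that were separated downward in the same way. Their promoter sequences are shown because these are the members with such a separation, of which Irs1 alone passed the test. Each is the stretch of 250 bases that ends just before the RefSeq transcription start (GRCm38.p6), printed on the strand of the gene from 5′ to 3′. Capitals mark GC boxes (GGGCGG or, on the other strand, CCGCCC) and E-boxes (CACGTG), and GC boxes may overlap. The Irs1 promoter lies at chr1:82291440-82291689, that of Igf2r at chr17:12769707-12769956 and that of Igfbp3 at chr11:7213924-7214173, all on the minus strand.
Irs1: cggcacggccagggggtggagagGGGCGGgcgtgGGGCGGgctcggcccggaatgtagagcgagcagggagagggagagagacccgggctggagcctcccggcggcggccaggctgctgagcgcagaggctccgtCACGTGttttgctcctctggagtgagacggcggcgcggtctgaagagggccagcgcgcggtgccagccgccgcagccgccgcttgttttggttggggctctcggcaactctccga
Igf2r: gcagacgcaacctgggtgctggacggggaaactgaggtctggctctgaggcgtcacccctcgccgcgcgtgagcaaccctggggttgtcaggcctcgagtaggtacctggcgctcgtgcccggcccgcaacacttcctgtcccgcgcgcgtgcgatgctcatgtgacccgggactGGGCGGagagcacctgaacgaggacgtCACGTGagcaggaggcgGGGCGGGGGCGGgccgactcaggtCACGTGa
Igfbp3: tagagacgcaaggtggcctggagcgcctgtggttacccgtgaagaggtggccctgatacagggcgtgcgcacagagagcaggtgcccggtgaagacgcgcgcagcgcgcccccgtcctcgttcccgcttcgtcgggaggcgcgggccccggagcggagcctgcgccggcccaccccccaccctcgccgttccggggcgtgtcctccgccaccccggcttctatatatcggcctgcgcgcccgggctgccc
Motif content differed among the 3 promoters. Irs1 had 2 GC boxes and 1 E-box at a GC content of 72.4%, Igf2r had 3 GC boxes and 2 E-boxes at 69.2%, and Igfbp3 had neither motif at 73.2%. Among all 32851 promoters of this length in the reference, 32.7% held a GC box and 6.02% an E-box. A forkhead motif (TGTTTAC or its reverse complement), a form of which FOXO factors bind, was in none of the 11 promoters of the 10 genes and in 3.17% of all promoters, while a GC box was in 5 of the 11. A match of letters is a description of the window and not a measured site.

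The libraries held 33493082 to 36494240 counts per 6-month-old mouse and 29495379 to 32813159 counts per 24-month-old mouse. In spite of the lower totals, the old libraries had counts for more genes (40208 to 43561 against 33974 to 35651). TMM scaling factors were 0.9205 to 0.9459 in the young and 1.037 to 1.101 in the old mice. Scaled values of all genes alike therefore stood lower in the old mice, relative to the young, than values from library totals would. Over the 15793 genes with a mean of at least 1 CPM, the median log2 fold change from 6 to 24 months was −0.14. Scaled by library totals instead, the median moved to 0.05 over these genes and from 0.15 to 0.34 over all 32905 genes tested. The labelled tissue matched its markers: of 8 cortical genes, none was at 3 counts or fewer in every library, and their summed level was 1040 to 1190 CPM in the young and 956 to 1050 CPM in the old mice.

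IGF system mRNAs spanned a wide range of levels in the cortex. On the TPM scale, averaged over the 6 mice, Igfbp6 was highest at 362 TPM and ranked 395 of the 55421 genes. Igfbp4 followed at 74.7 TPM, then Igfbp2 at 57.4, Igfbp7 at 55.0 and Igfbp5 at 52.9 TPM. The receptors and the ligand were lower, with Igf1r at 18.4 TPM, Igf2r at 8.22 TPM and Igf1 at 6.73 TPM, while Igfbp3 stood between the receptors at 12.3 TPM. Irs1 was lowest at 4.20 TPM and ranked 12818, on a length that includes exonic bases shared with another gene. For several neighbours in this order the ranges over mice overlapped. Of these, Igfbp4 was above Igfbp2 within 6 of 6 mice, Igfbp7 above Igfbp5 and Igf2r above Igf1 within 5 of 6, and Igfbp2 above Igfbp7 within 3 of 6. By contrast, the ranges of Igfbp6 and Igfbp4 did not overlap, nor did those of Igfbp5 and Igf1r, Igf1r and Igfbp3, Igfbp3 and Igf2r, or Igf1 and Irs1. In each of these pairs the first gene was higher in 6 of 6 mice.

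**Figure D1:**
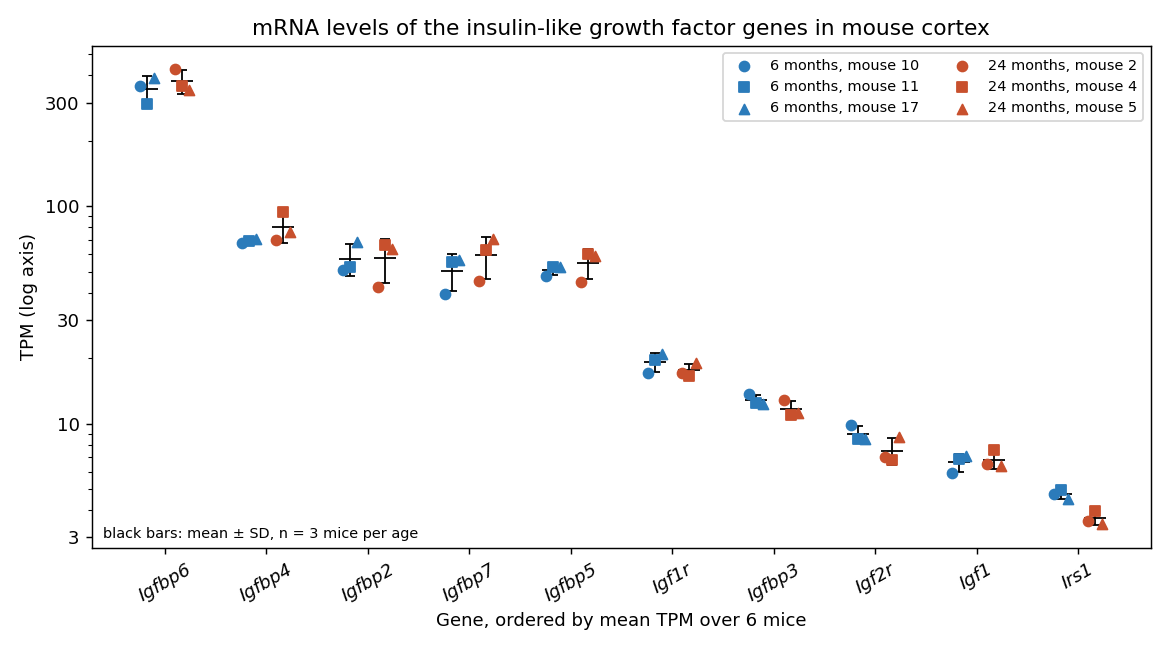
Level of each gene in each mouse (vertical axis, TPM on a log axis) with genes ordered by mean TPM from left to right. Points are single mice, black bars are mean ± SD of 3 mice per age, and Igfbp6 stands apart at 294 to 429 TPM while Irs1 sits between 3.47 and 4.93 TPM, with the old mice below the young.

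In old against young cortex, 1 of the 10 genes passed a 10% false discovery rate (FDR; edgeR quasi-likelihood test, Benjamini-Hochberg adjustment over the 32905 genes tested), namely Irs1, which fell. All 10 genes passed the filter on low counts. Across all genes tested, 18.4% passed the same threshold, 10.0% higher and 8.33% lower at 24 months, and among genes of at least 1 CPM, where all 10 genes belong, 2.47% were higher and 17.3% lower. With 1 fall among 10, the members' share lay between these backgrounds and is no result about the IGF system as a whole. Irs1 was also the 1 member called at 10% by edgeR's likelihood ratio test, its exact test and DESeq2, which called 22.8%, 18.8% and 11.2% of genes. At a 1% FDR, 0 of the 10 members passed in any of these tests, while the share of all genes was 0% with the quasi-likelihood test, 5.18% with the likelihood ratio test, 3.41% with the exact test and 0.836% with DESeq2. At an unadjusted p below 0.05 in the quasi-likelihood test the members numbered 3, all lower (Irs1, Igf2r and Igf1r). The share of all genes tested was 30.7% there, 17.6% higher and 13.1% lower, and that of genes of at least 1 CPM was 31.2%, 4.31% higher and 26.9% lower. Fitted values were above 0 for 3 members and below 0 for 7, with a median of −0.09.

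The members whose 24-month-old mice all lay below the 6-month-old mice in CPM were also 3 (Irs1, Igf2r and Igfbp3), and none lay wholly above. Among genes of at least 1 CPM, 32.4% were separated downward in this way and 5.43% upward, and over all genes tested 16.3% and 20.0%. On the TPM scale, which is not corrected by TMM factors, only Irs1 of the 10 members kept its ages apart on the lower side.

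**Figure D2:**
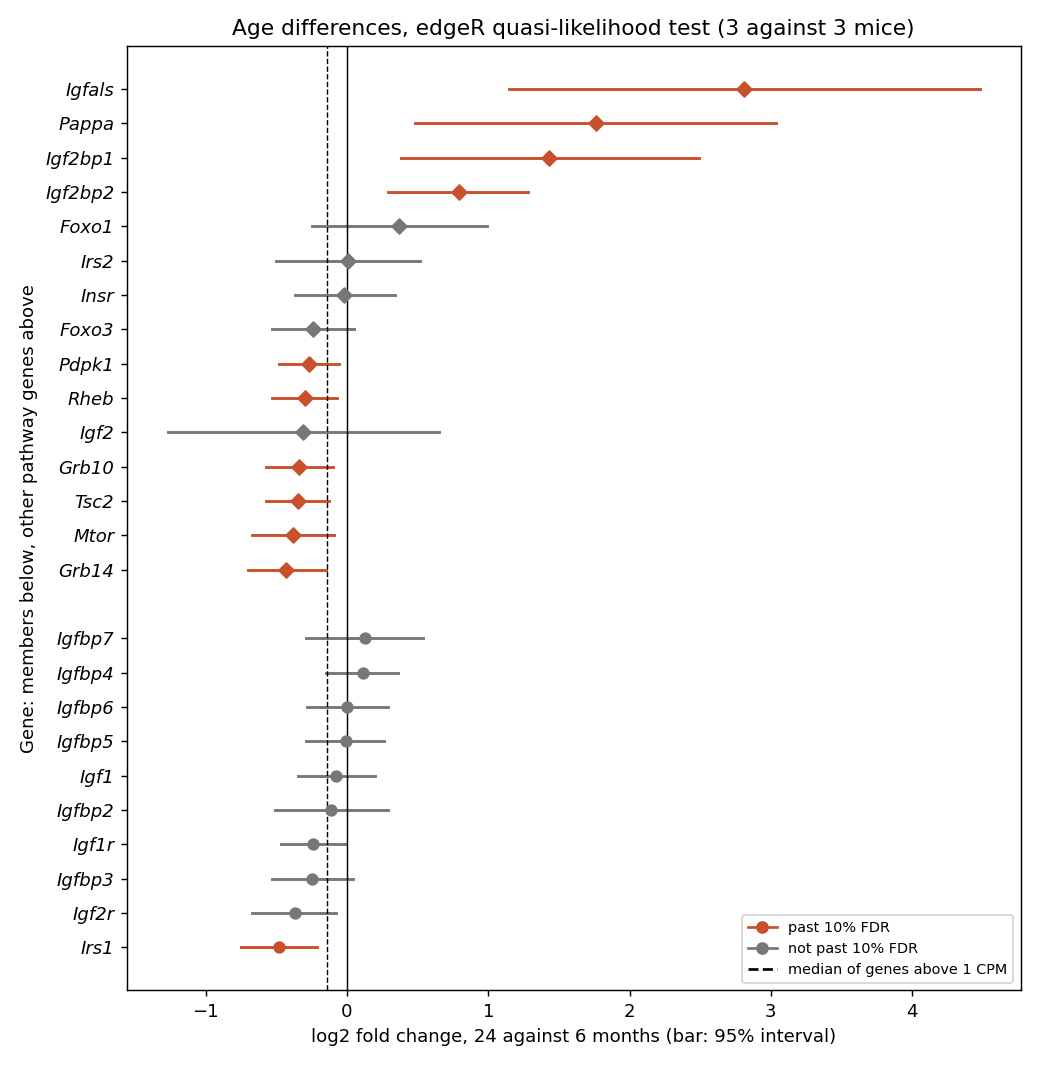
Fitted log2 fold change from 6 to 24 months (horizontal axis) for the 10 members in the lower block and for the named pathway genes in the upper block, with 95% intervals as bars. Red marks genes past a 10% FDR and the dashed line the median of genes of at least 1 CPM (−0.14), and Irs1 at −0.48 is the single red point in the lower block.

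Irs1 encodes the adaptor that links the activated IGF1 and insulin receptors to PI3K. It is a protein-coding gene at chr1:82233101-82291416 (ENSMUSG00000055980.2) on the minus strand (GRCm38), and 9144 exonic bases lie behind its TPM. Its counts were 385, 440 and 382 in the 6-month-old mice and 279, 330 and 284 in the 24-month-old mice. Scaled, these were 12.5, 12.7 and 11.7 CPM at 6 months and 8.60, 9.54 and 8.35 CPM at 24 months, and the highest old mouse stayed below the lowest young mouse. The mean level dropped from 12.3 ± 0.564 CPM to 8.83 ± 0.629 CPM (SD, n = 3 each), a difference well above the spread within either age. The log2 fold change was −0.48 ± 0.12 (SE), a fold of 0.718 (95% interval 0.595 to 0.867), with an adjusted p of 0.0583 in the edgeR quasi-likelihood test. In TPM the values were 4.77, 4.93 and 4.49 at 6 months and 3.58, 3.97 and 3.47 at 24 months, and the ages did not overlap on this scale either. Relative to the median of genes of at least 1 CPM, the fold change was −0.34, and 5.58% of those genes had a lower one. The spread of Irs1 between mice (a CV of 4.59% at 6 and 7.12% at 24 months) was close to what counting alone gives (4.99% and 5.8%).

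Irs1 stayed lower at 24 months in 15 of 15 alternative settings, with log2 fold changes of −0.53 to −0.29, but passed the 10% FDR in 7 of them, with adjusted p from 0.0346 to 0.215. Many of these settings could hardly turn the sign. The likelihood ratio and exact tests keep the fold change, and ages that are separate in CPM stay so when 1 mouse is left out at the same scaling. The call was lost with library totals, with either stricter filter (filterByExpr or a mean of at least 1 CPM), with limma on TPM, and without 6-month-old mouse 10 or 11 or 24-month-old mouse 2 or 4. Calls over all genes dropped there too. From 6040 they went to 4439 with library totals, 1538 with filterByExpr, 66 at a mean of at least 1 CPM and 555 with limma. With each of these mice left out in turn, 0, 1, 176 and 0 genes passed. The exons of Irs1 share 2822 bases (30.9% of the Irs1 exons) with Gm9747 on the opposite strand. The study lists no strand setting among its changes to the counting defaults, so reads there could not be assigned by strand. Gm9747 was listed at 0 counts in all 6 libraries. If such reads were dropped, the TPM of Irs1 stands too low beside other genes, which was not tested.

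In bulk tissue, fewer cells that express a gene and less RNA per cell cannot be told apart. Of 8 neuronal genes, 3 fell at a 10% FDR (Syt1, Camk2a and Tubb3) and 0 rose, beside 17.3% and 2.47% of genes of at least 1 CPM. Their median log2 fold change was −0.25, against −0.14 for those genes. Their summed level was 11500 to 12900 CPM at 6 months and 8630 to 11000 CPM at 24 months. Snap25, which did not pass, weighed most in this sum (a mean of 5160 CPM at 6 months). The part of this shift in the fall of Irs1 was not tested.

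The receptors Igf2r and Igf1r had lower values at 24 months that did not pass the test. Igf2r encodes the cation-independent mannose-6-phosphate receptor, which carries IGF2 and lysosomal enzymes into the cell rather than signalling as a kinase. The gene lies at chr17:12682406-12769664 (ENSMUSG00000023830.14) on the minus strand. Young mice had 808, 770 and 738 counts and old mice 554, 573 and 724. This gave 26.2, 22.3 and 22.5 CPM in the young and 17.1, 16.6 and 21.3 CPM in the old mice, with old mouse 5 just under the lowest young mouse. Means were 23.7 ± 2.19 and 18.3 ± 2.59 CPM (SD, n = 3 each), and the log2 fold change was −0.37 ± 0.13 (SE). The adjusted p in the edgeR quasi-likelihood test was 0.1003, just outside the threshold. On the TPM scale the ages overlapped, since old mouse 5 at 8.70 TPM exceeded young mice 11 (8.48) and 17 (8.53 TPM). Without 24-month-old mouse 5 the fold change was −0.49 and the adjusted p 0.0412, the only 1 of 15 alternatives in which Igf2r passed. In that fit 7998 of all genes passed, against 6040 with all mice.

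Igf1r encodes the tyrosine kinase that answers IGF1 and IGF2. It lies at chr7:67952827-68233668 (ENSMUSG00000005533.10) on the plus strand, and its exonic length of 16791 bases is the longest of the 10 genes. Its count was 2540, 3211 and 3250 in the young and 2451, 2530 and 2853 in the old libraries. In CPM these were 82.4, 93.0 and 99.3 in the young and 75.5, 73.1 and 83.9 in the old mice, and the ages overlapped, with old mouse 5 above young mouse 10. The means were 91.6 ± 8.53 and 77.5 ± 5.63 CPM (SD, n = 3 each), a fold of 0.847 (95% interval 0.722 to 0.993), and the adjusted p was 0.149 (edgeR quasi-likelihood test). It passed a 10% FDR in 1 of 15 alternatives, the fit without 24-month-old mouse 5 (adjusted p 0.0906). On the TPM scale Igf1r was 17.1, 19.6 and 20.8 at 6 months and 17.1, 16.6 and 19.0 at 24 months.

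The balance of the receptors was measured as a ratio of TPM values. Igf1r over Igf2r was 1.74, 2.31 and 2.44 in the young and 2.45, 2.45 and 2.18 in the old mice, and the ages overlapped (2.17 ± 0.372 and 2.36 ± 0.153). Igf1r over the insulin receptor gene Insr was 3.37 ± 0.182 at 6 months and 2.96 ± 0.471 at 24 months, again with overlap. Irs1 over its paralog Irs2 was 0.543 ± 0.12 and 0.405 ± 0.127 (SD, n = 3 for every ratio), and old mouse 4 at 0.505 lay above young mouse 17 at 0.442.

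Igf1, the ligand, differed little between the ages. The gene lies at chr10:87858265-87937042 (ENSMUSG00000020053.18) on the plus strand. Counts of 517, 665 and 655 in the young mice stood beside 552, 680 and 562 in the old mice. Scaled values were 16.8, 19.3 and 20.0 CPM in the young and 17.0, 19.7 and 16.5 CPM in the old mice, which overlapped through nearly their whole range. The log2 fold change of −0.08 ± 0.12 (SE) had a 95% interval of −0.35 to 0.20, which spans 0, and an adjusted p of 0.703 (edgeR quasi-likelihood test). Its sign turned with the scaling, since library totals gave 0.12. The antisense gene Igf1os, at 1 to 13 counts per library, shares 0 exonic bases with Igf1.

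Igfbp3 encodes the main carrier of IGF in serum, and it was the least abundant of the 6 binding proteins in every mouse on the TPM scale. It lies at chr11:7206086-7213923 (ENSMUSG00000020427.11) on the minus strand, next to Igfbp1 with 3539 bases between the genes. Young mice had 377, 382 and 358 counts and old mice 344, 313 and 313. In CPM the young mice had 12.2, 11.1 and 10.9 and the old mice 10.6, 9.05 and 9.20, so the ages were separated by a small gap between young mouse 17 and old mouse 2. The log2 fold change of −0.25 ± 0.13 (SE) did not pass, with an adjusted p of 0.212 (edgeR quasi-likelihood test), and passed in 0 of 15 alternatives, though it was below 0 in all 15 (−0.31 to −0.05). In TPM, old mouse 2 at 12.9 was above young mice 11 and 17 at 12.5 and 12.3, so the separation held only for CPM.

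Igfbp6, whose product prefers IGF2 over IGF1, had the highest TPM of the 10 genes in every library. It lies at chr15:102144362-102149511 (ENSMUSG00000023046.6) on the plus strand and has the shortest exonic length of the 10 genes, 1112 bases. On the TPM scale it measured 357, 294 and 390 at 6 months and 429, 357 and 343 at 24 months. The highest value came from an old and the lowest from a young mouse, with the other 4 interleaved. The CPM means were 110 ± 15.6 and 110 ± 13.4 (SD, n = 3 each), and the log2 fold change of 0.00 ± 0.13 (SE) had an interval of −0.28 to 0.29 (adjusted p 0.986, edgeR quasi-likelihood test).

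Igfbp4 encodes a binding protein that restrains IGF until the protease PAPP-A cleaves it. It lies at chr11:99041244-99054392 (ENSMUSG00000017493.12) on the plus strand. Its values were 85.2, 86.4 and 88.2 CPM in the young and 81.4, 110 and 88.6 CPM in the old mice. The young mice were nearly identical and the old mice lay on both sides of them. The CV between mice was 1.77% at 6 months, where counting alone gives 1.88%, and 15.7% at 24 months. Its log2 fold change was 0.11 ± 0.12 (SE; adjusted p 0.56, edgeR quasi-likelihood test), and the difference in CV between the ages was not tested.

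Igfbp5, which encodes a binding protein that also attaches to extracellular matrix, showed the same kind of values. It lies at chr1:72857932-72874884 (ENSMUSG00000026185.8) on the minus strand. It measured 82.0, 89.6 and 89.9 CPM at 6 months and 70.7, 95.6 and 93.0 CPM at 24 months. The old mice again enclosed the young ones, with mouse 2 lowest of all 6. With a log2 fold change of −0.01 ± 0.12 (SE) it had an adjusted p of 0.96 (edgeR quasi-likelihood test), and the CV was 5.12% in the young and 15.8% in the old mice.

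Igfbp2, which encodes a binding protein abundant in cerebrospinal fluid, is the tail-to-tail neighbour of Igfbp5, at chr1:72824503-72852474 (ENSMUSG00000039323.18) on the plus strand with 5457 bases between them. The young mice had 26.9, 27.4 and 35.8 CPM and the old mice 20.6, 32.1 and 31.0 CPM. Old mouse 2 was again the lowest, and the other old mice fell within the range of the young. The log2 fold change of −0.11 ± 0.18 (SE) had an interval of −0.51 to 0.29 and an adjusted p of 0.712 (edgeR quasi-likelihood test).

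Igfbp7, the binding protein with low affinity for IGF that is known from blood vessel walls, was with Igfbp2 the member that varied most over the 6 libraries. It lies at chr5:77349240-77408041 (ENSMUSG00000036256.13) on the minus strand. Its values were 13.6, 18.9 and 19.5 CPM at 6 months and 14.4, 19.9 and 22.5 CPM at 24 months, so 1 mouse of each age, young mouse 10 and old mouse 2, stood well below the other 4. Its fitted log2 fold change was 0.13 ± 0.19 (SE; adjusted p 0.67, edgeR quasi-likelihood test). Its SD of log2 CPM over the 6 libraries, 0.28, was the largest of the 10 genes together with that of Igfbp2, which rounds to the same value, and its CV of 18.6% and 21.9% was over that from counting (4.19% and 3.95%). Of its exonic bases, 85 (7.03%) are shared with Polr2b on the opposite strand, and reads there cannot be assigned without a strand setting.

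Among genes of at least 10 mean CPM, those whose centred log2 CPM stayed closest to that of Igfbp7 over the 6 libraries were Spopl, Cerk, Nudt4, Itprid2 and Edem1. Their root mean square differences from Igfbp7 were 0.063, 0.065, 0.083, 0.088 and 0.094 on the log2 scale. With 6 points per gene and 10029 genes searched, this is a description of these libraries.

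Old mouse 2, in which Igfbp2, Igfbp4, Igfbp5 and Igfbp7 were lowest and Igfbp3 and Igfbp6 highest among the old mice in CPM, had the lowest sums among them for most marker lists. These included neurons (8630 CPM), interneurons (728), striatum (104), oligodendrocyte precursors (102), microglia (437) and red blood cells (57.0). Cortical, astrocyte and choroid plexus genes were not lowest there. Its immediate early genes summed to 3440 CPM, against 782 and 595 in old mice 4 and 5. Endothelial genes (8 listed, 0 past 10% FDR) summed to 166 CPM in this mouse, and to 223 and 265 CPM in old mice 4 and 5, against 224 to 234 CPM in the young. Pericyte and smooth muscle genes (0 of 8 past) summed to 164 CPM against 293 and 350, with 214 to 294 CPM in the young. Meningeal and fibroblast genes (0 of 8 past) summed to 37.8 CPM against 105 and 49.8, and young mouse 10, the lowest young mouse for Igfbp7, had 37.7 CPM against 62.7 and 91.9. Oligodendrocyte genes (0 of 8 past) summed to 1320 CPM in old mouse 2 and to 2460 to 4180 CPM in the other 5 mice. None of these markers was at 3 counts or fewer in every library, and the part of these cells in the spread of the binding proteins was not tested.

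Other marker lists were summed in the same way. Single genes past the test stand beside the 2.47% of genes of at least 1 CPM that rose and the 17.3% that fell. Astrocyte genes summed to 4760 to 5140 CPM in the young and 4970 to 5420 CPM in the old mice, with 1 gene, Gfap, past the test and higher. Microglial genes summed to 455 to 457 CPM and 437 to 472 CPM, with Tmem119 higher and Csf1r lower. Genes of the choroid plexus, a known brain source of Igf2, summed to 19.6 to 46.0 CPM and 22.6 to 46.8 CPM. Of these 8, only Tmem72 passed and was higher, with few reads (3, 7 and 3 counts in the young and 32, 30 and 19 in the old mice). With means of 0.131 and 0.804 CPM it lies below 1 CPM, so its background is the 10.0% of all genes tested that rose. Interneuron genes (0 of 9 past) summed to 968 to 992 CPM in the young and 728 to 965 CPM in the old mice, which did not overlap, and oligodendrocyte precursor genes to 132 to 145 CPM and 102 to 152 CPM, with Olig2 higher and Gpr17 lower. Red blood cell genes summed to 77.1 to 98.4 CPM and 57.0 to 80.1 CPM (Hbb-bt lower), and immediate early genes to 1650 to 3360 CPM and 595 to 3440 CPM (0 of 10 past).

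The make-up of the binding protein pool was compared as the share of each of the 6 genes in their summed TPM. The sum was 576, 536 and 650 TPM at 6 months and 645, 652 and 624 TPM at 24 months, and young mouse 17 lay within the range of the old mice. Igfbp6 supplied the larger part of the pool in every mouse, with 62.0%, 54.8% and 59.9% in the young and 66.5%, 54.8% and 55.0% in the old mice. Its mean share was 58.9% ± 3.67 and 58.8% ± 6.73 (SD, n = 3 each). Igfbp4 held 11.8% ± 1.04 and 12.5% ± 1.81, Igfbp2 9.71% ± 0.834 and 8.99% ± 2.08, and Igfbp5 8.74% ± 0.955 and 8.56% ± 1.39. Igfbp7 held 8.62% ± 1.73 and 9.32% ± 2.17. Igfbp3 held the smallest share, 2.37%, 2.33% and 1.89% in the young and 2.00%, 1.69% and 1.79% in the old mice. The ages overlapped for each of the 6 shares. By raw counts, which are not corrected for length, Igfbp6 held 32.0% at both ages, and Igfbp4 (25.4% and 26.8%) and Igfbp5 (25.5% and 24.9%) came close to it.

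**Figure D3:**
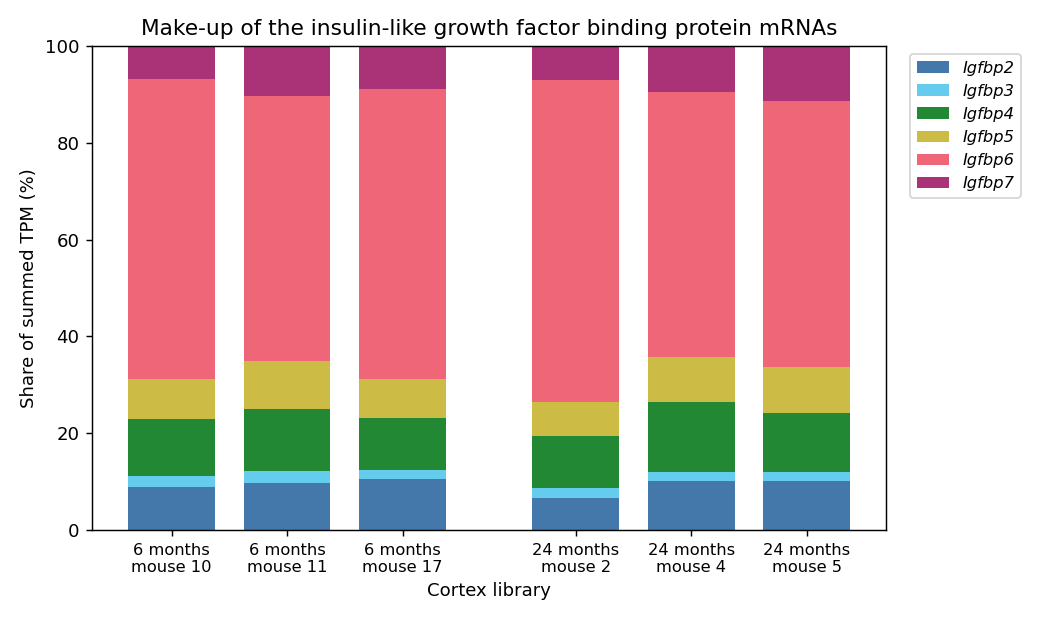
Share of each binding protein gene in the summed TPM of the 6 genes (vertical axis, percent), with 1 bar per mouse and the ages in separate blocks. Igfbp6 fills 54.8% to 66.5% of every bar, and the ages overlap for every gene.

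Summed binding protein mRNA relative to the ligand gave 97.4, 77.9 and 91.4 TPM per TPM of Igf1 in the young and 98.5, 86.3 and 98.4 in the old mice. The means, 88.9 ± 9.95 and 94.4 ± 7.01 (SD, n = 3 each), differed by less than the spread.

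The 4 members fitted lowest kept their direction under other processing, and the others did not all do so. Irs1, Igf2r, Igfbp3 and Igf1r were below 0 in 15 of 15 alternatives each. Igf2r ran from −0.49 to −0.18 and Igf1r from −0.31 to −0.05. These 4 were picked as the lowest fits, and many settings could hardly turn a sign. The likelihood ratio and exact tests keep the fold change, and fits without 1 mouse share most libraries. Relative to the median of genes of at least 1 CPM, Igf1r and Igfbp3 were each at −0.10 and Igf2r at −0.23. Of those genes, 32.8%, 31.8% and 13.6% had a lower fold change than Igf1r, Igfbp3 and Igf2r. The fold changes of Igf1 (−0.15 to 0.12), Igfbp2 (−0.22 to 0.08), Igfbp5 (−0.08 to 0.18), Igfbp6 (−0.09 to 0.20), Igfbp4 (−0.02 to 0.30) and Igfbp7 (−0.02 to 0.31) crossed 0. Each of these ranges was narrower than the 95% interval of the gene, and library totals gave the highest or joint highest value for every member.

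**Figure D4:**
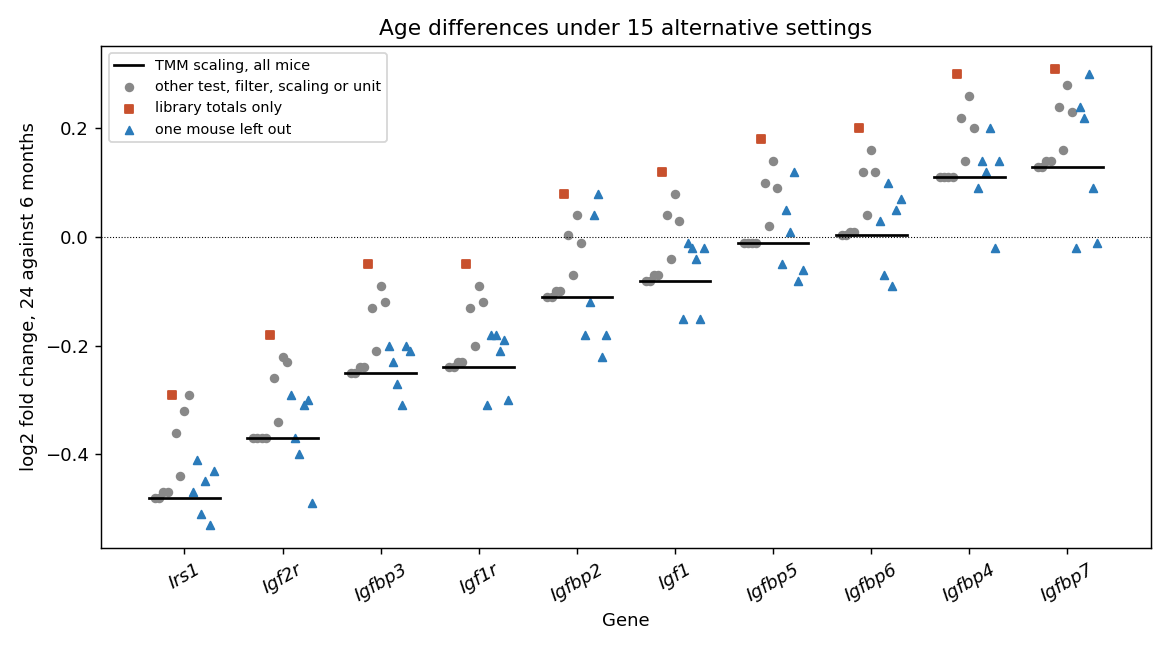
Log2 fold change from 6 to 24 months (vertical axis) of each member with TMM scaling and all mice (black line) and under 15 alternatives. Squares are library totals, triangles leave out 1 mouse, and circles are other tests, filters, scaling or units, where Irs1, Igf2r, Igfbp3 and Igf1r stay below 0 throughout, and the other 6 genes cross it.

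Other genes of the pathway were counted by role, from 49 listed genes of which 48 were tested. Of 16 tested genes for other ligands, receptors, binding proteins, their proteases and IGF2 mRNA-binding proteins, 4 rose at a 10% FDR and 0 fell, against 10.0% and 8.33% of all genes tested, and the median log2 fold change was 0.19, against 0.15. Ins2 was not tested, with 8 counts in all. The 4 that rose had few reads. Of the 16 genes, 8 had a mean of at least 1 CPM and 1 of these rose (Igf2bp2), beside 2.47% of all genes at that level. Over all genes tested 3299 rose, of which 390 were of at least 1 CPM, so rises lay mostly among genes of few reads. Igfals, the subunit that stabilises IGFBP3 complexes in serum, had 0, 2 and 1 counts in the young and 6, 12 and 6 in the old libraries, and every old mouse was above every young one in CPM too. Pappa, the IGFBP4 protease, had 12, 2 and 4 counts and then 29, 22 and 13. In CPM the ages overlapped for Pappa, with old mouse 5 at 0.382 just under young mouse 10 at 0.389. Their summed counts, relative to library totals multiplied by TMM factors, were 7.76 times (2.36 to 40.3) and 3.45 times (2.02 to 6.19) as high in the old mice. The intervals cover counting error only. Single mice moved these folds, since with each mouse left out in turn the fitted log2 fold change ran from 2.32 to 3.66 for Igfals (2.81 with all mice, highest without young mouse 11) and from 1.35 to 2.78 for Pappa (1.76 with all mice, highest without young mouse 10).

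Igf2bp1 and Igf2bp2 encode proteins that bind Igf2 mRNA. Igf2bp1 had 11, 6 and 10 counts in the young and 32, 33 and 11 in the old mice, with old mouse 5 level with the young. Igf2bp2 was at 1.01 ± 0.194 CPM and 1.74 ± 0.147 CPM (SD, n = 3 each), a log2 fold change of 0.79 ± 0.22 (SE; adjusted p 0.0646, edgeR quasi-likelihood test). The rises of Igfals, Pappa, Igf2bp1 and Igf2bp2 held in 7 of 13, 7 of 14, 7 of 14 and 9 of 15 of the alternatives that tested them. Without young mouse 10 or 11 or old mouse 2 or 4, none of the 4 passed (adjusted p 0.113 to 0.236, edgeR quasi-likelihood test), and without young mouse 17 only Igf2bp2 did (0.0945). Of all genes, 0, 1, 176 and 0 passed without mice 10, 11, 2 and 4, and 2476 without mouse 17, against 6040 with all mice. Igf2 itself had 22, 46 and 73 counts in the young and 26, 63 and 28 in the old mice, with wide overlap (log2 fold change −0.31 ± 0.43 SE; adjusted p 0.649, edgeR quasi-likelihood test).

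Of 32 genes of intracellular signalling, 0 rose and 6 fell at a 10% FDR, against 10.0% and 8.33% of all genes tested. The 6 were among the 29 genes of this list of at least 1 CPM, a level at which 2.47% of all genes rose and 17.3% fell. The median log2 fold change of the list was −0.09, against 0.15 over all genes tested and −0.14 over genes of at least 1 CPM. Grb14 and Grb10 encode adaptors that bind the insulin and IGF1 receptors, and dropped from 25.9 ± 0.764 to 19.2 ± 2.77 CPM and from 53.5 ± 5.72 to 42.3 ± 1.80 CPM. Mtor, the growth kinase itself, went from 80.4 ± 2.82 to 61.8 ± 11.5 CPM. Its inhibitor Tsc2 and its activator Rheb, which oppose each other, fell from 103 ± 5.16 to 80.5 ± 7.0 CPM and from 378 ± 11.2 to 307 ± 36.8 CPM. Pdpk1, the kinase that phosphorylates AKT, fell from 171 ± 10.1 to 142 ± 11.1 CPM (SD, n = 3 each throughout). Their adjusted p ran from 0.0636 for Tsc2 to 0.0968 for Pdpk1 (edgeR quasi-likelihood test). The calls held in 6 of 15 alternatives for Grb14 and Tsc2, 4 for Grb10, 3 for Mtor, 1 for Pdpk1 and 0 for Rheb. None of the 6 passed without young mouse 10 or 11 or old mouse 2 or 4 (adjusted p 0.11 to 0.349, edgeR quasi-likelihood test), Grb10 and Tsc2 alone passed without young mouse 17 (0.0986 and 0.0987), and only Rheb was lost without old mouse 5 (0.137). Calls over all genes moved likewise, from 6040 with all mice to 0, 1, 176 and 0 without mice 10, 11, 2 and 4. They were 2476 without mouse 17 and 7998 without mouse 5.

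Insr, Irs2, Foxo1 and Foxo3, the insulin receptor, the paralog of IRS1 and the transcription factors that AKT keeps out of the nucleus, did not pass. Insr was at 657, 770 and 756 counts in the young and 598, 670 and 957 in the old mice, with the highest and lowest values both at 24 months. Irs2 had 394, 596 and 598 counts and then 737, 452 and 438, so old mouse 2, which was low for Igfbp2, Igfbp5 and Igfbp7, was the highest for Irs2. The log2 fold change of Irs2 was 0.01 ± 0.23 (SE; adjusted p 0.981, edgeR quasi-likelihood test), beside −0.48 for Irs1, and the difference between the paralogs was not tested. Foxo1 ranged from 190 to 526 counts in the young and 463 to 550 in the old mice, and Foxo3 from 1921 to 2257 and 1671 to 2212, with adjusted p of 0.381 and 0.237 (edgeR quasi-likelihood test).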

How the data were processed

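Total RNA (10 ng) from frozen cortex powder of each mouse was made into libraries with a single cell/low input kit. Per the labels and the study's methods, the authors checked and trimmed reads of 75 bases (FastQC 0.11.8, Trim Galore 0.6.4), mapped them to GRCm38 (STAR 2.7.3a) and assigned them to exons (featureCounts, Subread 2.0.0). The authors deposited whole-number counts and TPM values, the latter computed from the counts and exonic lengths, with no strand setting given. Reads mapping to several places were kept, as fractions by the study's methods, but the deposited counts were whole numbers and were used as they stand. The study's annotation was a later GENCODE release.

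Counts were fitted in edgeR 4.0.16 (R 4.3.3) after keeping genes that reached 10 counts summed over 6 libraries, with TMM factors and the quasi-likelihood test of age alone, adjusted by Benjamini-Hochberg. The study's text names edgeR but no test. CPM use library totals multiplied by TMM factors. Alternatives were edgeR's likelihood ratio and exact tests, DESeq2 1.42.0 (5745 genes without an adjusted p), its size factors in edgeR, library totals, filterByExpr, no filter, a mean of at least 1 CPM, limma 3.58.1 on log2(TPM + 1), a 1% FDR, and each mouse left out. Intervals of summed counts are exact and at 95%. Ratios and shares used TPM as deposited. Other steps used scipy 1.17.1, numpy 2.4.6 and pandas 2.3.3 in Python 3.11.15.

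The members, gene lists and the 10% FDR were chosen with earlier results of these data known, in which 0 genes passed 1%, as in the quasi-likelihood test here. The study itself reported differentially expressed genes at a 1% FDR, and edgeR's likelihood ratio test called 1703 genes at that level. Genes named are the 10 members, Igf2, Insr, Irs2, Foxo1 and Foxo3, other listed pathway genes past 10% FDR (up to 8 in each direction), markers past it, and the 5 genes of at least 10 mean CPM nearest to the most variable member. Genes that neighbour or overlap a member, and Ins2, were named after values were seen. Some listed markers are not reported here. Of 55421 gene identifiers, 55240 matched GENCODE vM21, from which positions were taken. Promoters are from RefSeq (GRCm38.p6), and all 10 members matched.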

Additional observations from a re-analysis of the deposited data

How the results depend on the processing

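The count of members past a 10% FDR was 1, and stayed 1 with the likelihood ratio test, the exact test, DESeq2, its size factors and no filter. It was 0 with library totals, filterByExpr, a mean of at least 1 CPM, limma on TPM and a 1% FDR, and 0 to 3 with 1 mouse left out, being 0 without 6-month-old mouse 10 or 11 or 24-month-old mouse 2 or 4 and 3 without 24-month-old mouse 5. Other pathway genes past the threshold numbered 10, but 6 with the exact test, with DESeq2 and with library totals (6 higher and 0 lower), 5 without a filter, 1 with filterByExpr, 0 with a mean of at least 1 CPM, limma on TPM or a 1% FDR, and 0 to 15 with 1 mouse left out. Of all genes, 6040 passed (3299 higher, 2741 lower), against 4439 with library totals (4121 higher, 318 lower), 3048 with DESeq2, 1538 with filterByExpr, 4014 without a filter, 66 with a mean of at least 1 CPM, 555 with limma on TPM, 0 at a 1% FDR, and 0 to 7998 with 1 mouse left out (0 without 6-month-old mouse 10 or 24-month-old mouse 4).

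Signs turned for genes near 0. With library totals, filterByExpr and a mean of at least 1 CPM, the log2 fold change was 0.12, 0.04 and 0.08 for Igf1, 0.08, 0.0043 and 0.04 for Igfbp2, 0.18, 0.10 and 0.14 for Igfbp5, and 0.17, 0.09 and 0.13 for Insr. Limma on TPM gave 0.03 for Igf1, 0.09 for Igfbp5 and 0.06 for Insr, and no filter gave 0.02 for Igfbp5 and Insr. With 1 mouse left out the values ran from −0.22 to 0.08 for Igfbp2, −0.02 to 0.20 for Igfbp4, −0.08 to 0.12 for Igfbp5, −0.09 to 0.10 for Igfbp6, −0.02 to 0.30 for Igfbp7, −0.81 to 0.16 for Igf2, −0.23 to 0.10 for Insr and −0.30 to 0.16 for Irs2. The median over genes of at least 1 CPM moved as well, from −0.14 to 0.05 with library totals, −0.03 with filterByExpr and 0.01 with a mean of at least 1 CPM. The cause of the turns was not tested.

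No paired analysis was possible because no mouse number occurs at both ages. With 3 mice per age, calls near the threshold depended on single mice, and genes of few counts, such as Igfals and Pappa, are limited by counting error as well.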
